A study of Mus musculus with 22 samples.

Results

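The Rab small GTPases described here are 55 of the 24854 genes listed across 6 deposited tables from mouse megakaryocytes and platelets. They were chosen by gene symbol alone, as Rab followed by a number and at most a further letter and digit, a rule that uses no measured value, though the family was taken up with earlier results of these data known. Rab27a and Rab27b also fit that pattern and were left out. Of the 55 genes, 35 have a row in the megakaryocyte tables and 52 a row in the platelet table. Rows in both data types exist for 32 of them. Rab11b, Rab33b and Rab43 have megakaryocyte rows only, and 20 have a platelet row only.

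Rab proteins are molecular switches on membranes: bound to GTP they recruit effector proteins such as motors, tethers and fusion regulators, and bound to GDP they are extracted into the cytosol. Guanine nucleotide exchange factors (GEFs) load GTP, GTPase-activating proteins (GAPs) end the active state, and escort proteins help to attach the lipid anchor and to recycle the GDP form. Each compartment carries its own set, and in the megakaryocyte lineage Rab proteins direct the sorting, transport and release of platelet granules, as well as the membrane traffic from which platelets form. Closely related Rab genes such as Rab8a and Rab8b encode similar proteins that often share effectors.

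The study examined RNA after loss of Srsf3, which encodes a serine- and arginine-rich splicing factor, in 22 samples. Bone marrow megakaryocytes of adult mice, positive for CD41, were separated by ploidy into 8N cells and cells of 16N and above, here called 16N-plus. The 4 megakaryocyte groups, of 3 samples each, combine these ploidies with the genotypes Cre-negative control and Pf4Cre-Srsf3fl/fl knockout. Platelets in 3 samples came from wild type mice, in 3 from Cre-negative controls and in 4 from Pf4Cre-Srsf3fl/fl knockouts. In the knockouts, Cre is expressed from the platelet factor 4 promoter, which is active in the megakaryocyte lineage, and only they carry the transgene. Effects of Cre itself and of Srsf3 loss therefore cannot be told apart. Megakaryocytes were labelled C57BL/6. The strain labels of the platelet samples carry a different number for each sample, and strain was not used. Megakaryocyte samples were pools of sorted cells, and the labels do not say which samples came from separate animals.

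The deposited values are the authors' own comparisons, so no value per library can be shown and each gene is given by its mean level, its log2 fold change and the standard error (SE). A gene was called where the authors' adjusted p was under 0.05. Counts of genes higher or lower are counts of called genes, unless values above or below 0 are named. The tables do not name the numerator of their contrasts. Signs are given as 16N-plus minus 8N and as knockout minus control, a direction inferred from the values: in the authors' deposited table of the control ploidy step, Tubb1, the platelet beta tubulin, was at 2.26 and Mki67, a proliferation marker, at -1.15. The platelet sign was chosen for its positive rank correlation with the megakaryocyte genotype tables over genes other than the Rab genes, of 0.21 with the 8N table and 0.30 with the 16N-plus table. In megakaryocytes the ploidy and genotype signs are tied, because the interaction computed either way matched to within 1.02e-14 in every gene. They could only be reversed together. Reversed contrasts would turn the signs below, and the platelet signs could be reversed on their own.

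All 12 megakaryocyte markers had a row in each data type. Markers of other bone marrow cells were also listed in the megakaryocyte tables: 11 of 12 for macrophages, 12 of 12 for neutrophils, 9 of 10 for erythroid cells, 5 of 8 for B cells and 3 of 8 for T cells. Srsf3 was not called in any megakaryocyte comparison, and in the direction used here it was above 0 in knockouts, at 0.33 (SE 0.21) in 8N cells and 0.43 (SE 0.27) in 16N-plus cells per the authors' deposited tables. Over both ploidies it was at 0.38 (SE 0.17), with an edgeR adjusted p of 0.276. This sign goes against the knockout label, while values summed over all its exons need not show the deletion. No platelet value is listed for Srsf3. Fold changes are relative to the rest of each library, and in these bulk samples fewer cells of a type and less RNA per cell cannot be told apart.

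In megakaryocytes few of the 35 listed Rab genes passed the test. Their mean level over libraries ran from 4.5 for Rab23 to 8.47 for Rab8b, in log2 of CPM (counts scaled to library size), in the authors' deposited tables, whose lowest level over all genes was 4.23. In the ploidy step of control cells, 2 of 35 were called, Rab8b higher and Rab43 lower, where 7.25% of all 9326 rows were called. In the ploidy step of knockout cells 1 of 35 was called, Rab11a, which was higher, where 3.31% of all rows were called in either direction and 2.1% higher. Between genotypes, 0 of 35 were called in 8N cells, where 1.44% of all rows were. At an unadjusted edgeR p under 0.05, 1 of 35 passed there, beside 8.15% of all rows. In 16N-plus cells 1 of 35 was called, Rab8b, where 3.51% of all rows were. In the comparison that pools both ploidies 0 of 35 were called by edgeR, where 4.19% of all rows were called. At an unadjusted edgeR p under 0.05, 4 of 35 passed, beside 13.6% of all rows. The Rab share was 5.71% in the control step and 2.86% in the knockout step and in 16N-plus cells, near or below the background of each table. With Holm adjustment in place of the authors' adjusted p, 0 of 35 were called in each of these 3 comparisons.

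**Figure D1:**
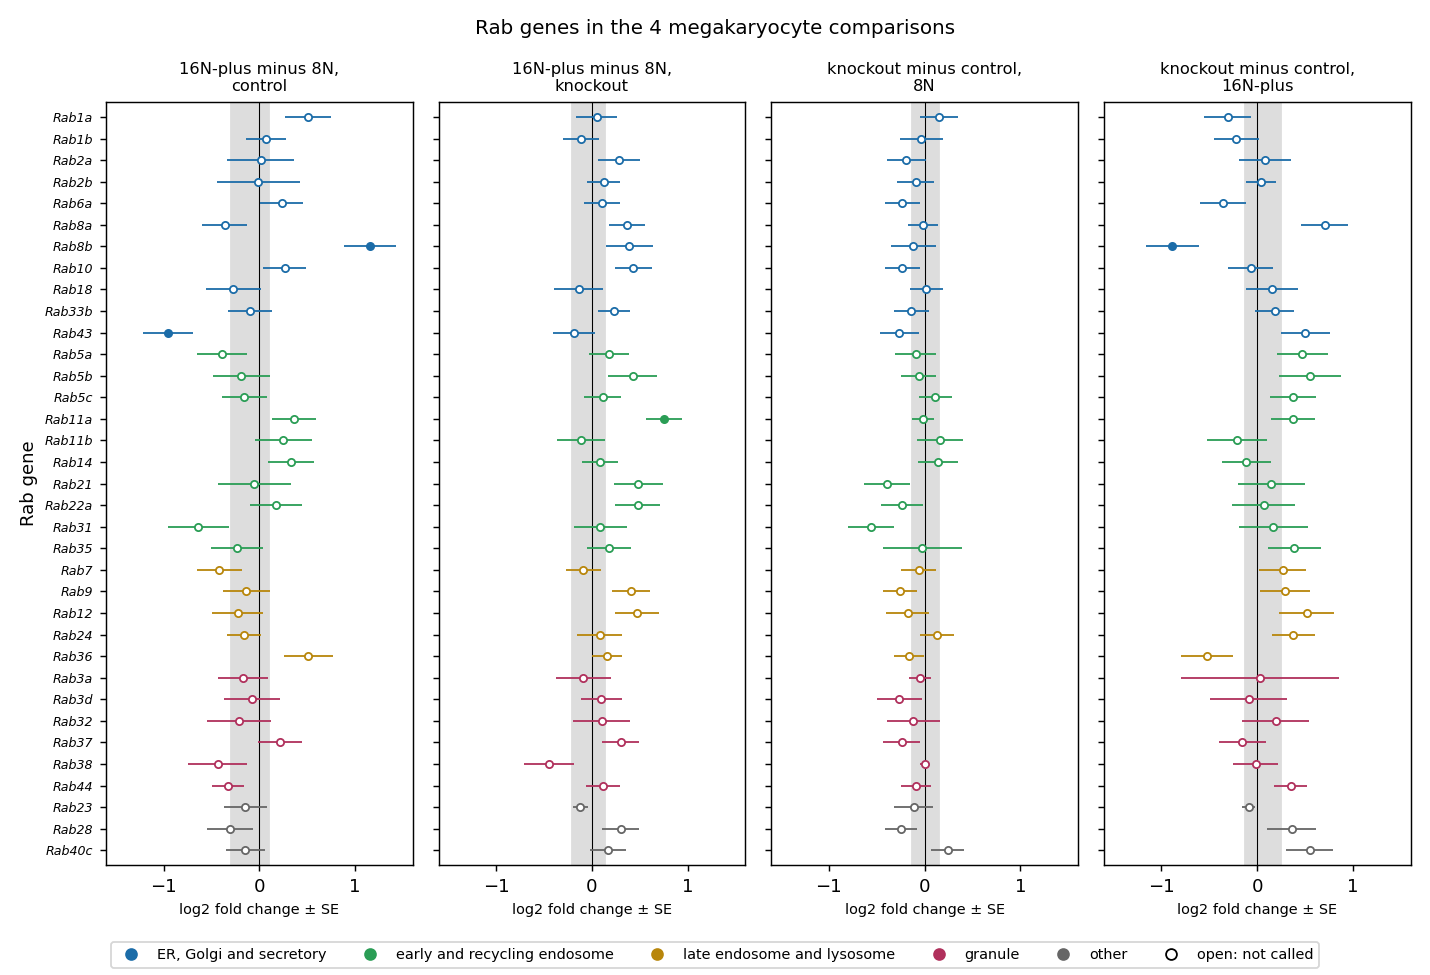
Log2 fold change ± SE on the x axis for each of the 35 Rab genes listed in megakaryocytes, in 4 comparisons, coloured by the main site of action. Filled points were called, grey bands hold the middle 50% of all 9326 rows, and Rab8b, Rab43 and Rab11a are the only filled points.

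Among the Rab genes of the endoplasmic reticulum, Golgi and secretory route, Rab8b held the largest value in the control ploidy step and between genotypes in 16N-plus cells. Rab8b (ENSMUSG00000036943, chromosome 9, 66843664 to 66919687 on the minus strand, GRCm38) directs vesicles to the plasma membrane and to cilia. In control cells it was 2.23-fold higher in 16N-plus than in 8N, or 1.16 on the log2 scale (SE 0.27), per the authors' deposited table, with an edgeR adjusted p of 0.000874. In knockout cells the same step was 0.39, with a 95% interval from -0.09 to 0.87, in the authors' deposited table, and was not called. Between genotypes, Rab8b fell by 0.88 (SE 0.28) in 16N-plus knockout cells in the authors' deposited table, with an edgeR adjusted p of 0.0477, a call lost at a threshold of 0.01. In 8N cells the authors' deposited table gave -0.12, with an interval from -0.57 to 0.34, which includes 0. In the table that pools both ploidies it was at -0.50 (SE 0.19) with an edgeR adjusted p of 0.144, per the authors' deposited table. The control ploidy step and the 16N-plus genotype comparison share the control 16N-plus libraries.

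Rab43 (ENSMUSG00000030055, chromosome 6, 87788853 to 87812164 on the minus strand, GRCm38), a Golgi Rab with a part in phagosome maturation, went the other way in the control step. It fell by 0.96 (SE 0.26) from 8N to 16N-plus in the authors' deposited table, with an edgeR adjusted p of 0.00701. The knockout step of Rab43 was -0.19, with an interval from -0.61 to 0.24, in the authors' deposited table. Its exons overlap those of the protein-coding gene Gm45140 on the same strand, so its reads may be shared and its value is uncertain. In the same control step, 10 of 11 macrophage markers (median -1.18, range -1.95 to -0.48) and 5 of 12 neutrophil markers were called lower. So was 1 of 9 erythroid markers. Called higher were 10 of 12 megakaryocyte markers, per the authors' deposited table. By sign, every listed macrophage marker and neutrophil marker (-1.31 to -0.15) was below 0, and every megakaryocyte marker (0.40 to 2.26) above. The part of these cells in the values of Rab43 and Rab8b was not tested.

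Rab8a (ENSMUSG00000003037, chromosome 8, 72161200 to 72183904 on the plus strand, GRCm38) is the closest relative of Rab8b and had no call in megakaryocytes. In 16N-plus cells the genotype value of Rab8a was 0.71 per the authors' deposited table (SE 0.24, 95% interval 0.23 to 1.19) with an edgeR adjusted p of 0.091. Around the fall of Rab8b in 16N-plus knockout cells, 6 of 12 megakaryocyte and 1 of 9 erythroid markers were called lower. Called higher were 2 of 12 neutrophil markers. Of the macrophage markers 0 of 11 were called by edgeR, with 2 of 11 at an unadjusted p under 0.05. Their part in the Rab8b value was not tested. The other 8 secretory Rab genes listed in megakaryocytes were called in none of the 5 tables. They include Rab1a and Rab1b, which act in transport from the endoplasmic reticulum to the Golgi, Rab6a, which acts in Golgi traffic, and Rab10, which acts in delivery to the cell surface.

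Of the 10 Rab genes of early and recycling endosomes, Rab11a alone was called in a megakaryocyte table. Rab11a (ENSMUSG00000004771, chromosome 9, 64715299 to 64737758 on the minus strand, GRCm38) marks the recycling endosome. In knockout cells it was higher in 16N-plus than in 8N by 0.75 (SE 0.19) per the authors' deposited table, with an edgeR adjusted p of 0.0042. In control cells the step was 0.36, with an interval from -0.09 to 0.81, in the authors' deposited table. The difference of the steps was 0.39 (95% interval -0.11 to 0.89), so a larger step in knockout cells was not shown. In the knockout step 8 of 12 megakaryocyte markers and 3 of 5 B cell markers were called higher. Called lower were 6 of 11 macrophage markers and 1 of 3 T cell markers. The part of these markers was not tested. Rab31, which moves cargo between the Golgi and endosomes, held the lowest 8N genotype value, -0.56 (SE 0.24) per the authors' deposited table, with an edgeR adjusted p of 0.426.

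No late endosome, lysosome or granule Rab was called by edgeR in the 5 megakaryocyte tables. Across the 5 late endosome and lysosome genes, genotype values in 16N-plus cells ran from -0.52 to 0.52 in the authors' deposited table, with Rab36, which positions lysosomes, at the low end and Rab12, which sends cargo to lysosomes, at the high end. Rab7, the central late endosome Rab, was at 0.27 with an interval from -0.22 to 0.75. Rab32 and Rab38 act in the biogenesis of lysosome-related organelles, among them platelet dense granules. In 16N-plus cells Rab32 was at 0.19 (95% interval -0.49 to 0.88) and Rab38 at -0.01 (interval -0.48 to 0.45) in the authors' deposited table. Both intervals span 0.

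The genotype effect of a Rab gene was also compared between ploidies. None of the 35 interactions passed the adjusted threshold, 0 of 35, where 0.731% of 9305 genes did (0.172% higher and 0.559% lower), and 4 of 35 had an unadjusted p under 0.05, beside 7.85% of all genes. Those 4 were Rab8a, at an interaction of 0.72 (16N-plus minus 8N, 95% interval 0.16 to 1.29), Rab43 at 0.77 (0.13 to 1.40), Rab28 at 0.61 (0.0030 to 1.21) and Rab8b at -0.77 (-1.48 to -0.06). Rab8a and Rab8b dropped out when F above 0.5 was required in both genotype comparisons. Their 8N values lie near 0, where the SE is unstable, so these 2 intervals are uncertain. The interaction was above 0 for 27 of 35 Rab genes, where 56.2% of all genes were, with a median of 0.27 beside 0.05. It also equals the knockout ploidy step minus the control step, so it restates shifts described below and adds no separate evidence. Among the markers, neutrophil genes had a median interaction of 0.92, with 2 of 12 called higher, and 2 of 5 B cell markers were called higher. No other marker was called, and the part of these cells was not tested.

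Small shifts in the list as a whole differed in sign between comparisons. In 8N cells 27 of 35 Rab genes had a genotype value below 0, where 48.3% of all rows did, and the list's median was -0.09 beside 0.01. In that comparison 5 of 12 megakaryocyte, 3 of 12 neutrophil, 2 of 5 B cell and 1 of 9 erythroid markers were called lower. Called higher was 1 of 3 T cell markers. By sign, every megakaryocyte (-2.58 to -0.20), B cell (-1.66 to -0.11) and erythroid (-1.09 to -0.12) marker listed was below 0. Neutrophil markers ran from -0.98 to 0.16, macrophage markers from -0.71 to 0.06 and T cell markers from 0.13 to 1.12. Their part in the Rab values was not tested. In 16N-plus cells 23 of 35 were above 0, where 60.9% of all rows were, and the median was 0.15 beside 0.07. In the ploidy step 23 of 35 were below 0 in control cells, where 63.8% of all rows were, with a median of -0.15 beside -0.11. In knockout cells 27 of 35 were above 0, where 42.6% of all rows were, with a median of 0.12 beside -0.05. The 4 comparisons share libraries in pairs, and these counts are a description with no test.

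In platelets most Rab genes with an adequate level were called, and more of them were lower than higher in knockouts. The platelet table, from an amplicon panel, gave an adjusted p for 40 of the 52 Rab rows. In the authors' deposited table DESeq2 called 28 of 40, of which 8 were higher and 20 lower, which is 70%, where 53.2% of all 12611 rows tested were called. The share called lower was 50%, beside 25% of all rows, and the share called higher 20%, beside 28.2%. The median log2 fold change of the 40 genes was -0.74 beside 0.02 over all rows tested. Erythroid markers moved widely in the same comparison, and 6 of 7 were called higher. All 7 had a median of 5.57 and a range from 2.22 to 6.57 in the authors' deposited table. There, 9 of 12 megakaryocyte markers and 1 of 5 B cell markers were called lower. Macrophage markers were called higher in 1 and lower in 3 of 10. For neutrophils 0 of 9 and for T cells 0 of 7 markers were called by DESeq2, with 0 at an unadjusted p under 0.05. The part of these cells in the Rab values was not tested.

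**Figure D2:**
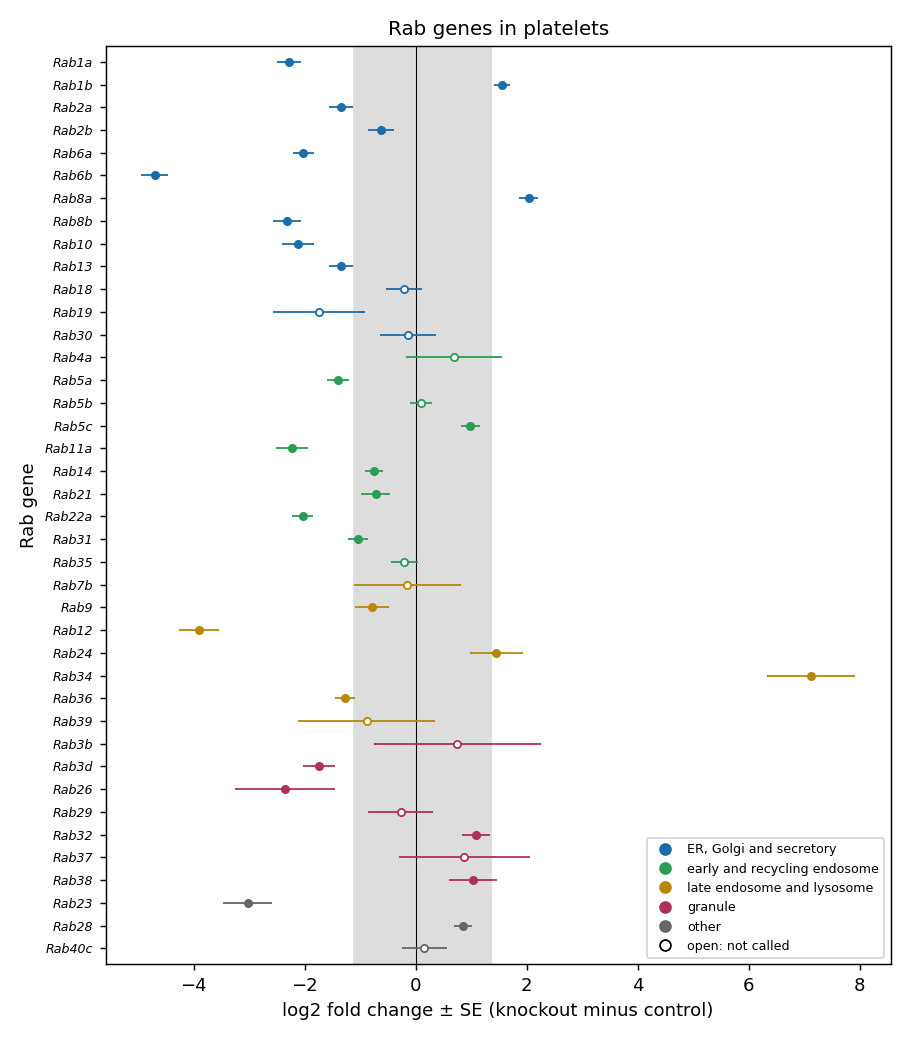
Log2 fold change ± SE (knockout minus control) on the x axis for the 40 Rab genes with an adjusted p in platelets, coloured by the main site of action. Filled points were called, the grey band holds the middle 50% of the rows tested, and the called genes span -4.70 for Rab6b to 7.12 for Rab34.

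Level bears on these counts, since a higher mean count gives a smaller error. At a mean count, scaled by size factors, of at least 10, the authors' deposited table called 27 of 32 Rab genes, 8 higher and 19 lower, beside 70.1% of the 8337 rows at that level. The share called lower was 59.4% beside 33.5%, and the share called higher 25% beside 36.5%. At a mean count of at least 100, 22 of 25 were called, 4 higher and 18 lower, beside 81.3% of 4067 rows. Of these Rab genes 72% were lower beside 44% of rows, and 16% were higher beside 37.3%.

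**Figure D3:**
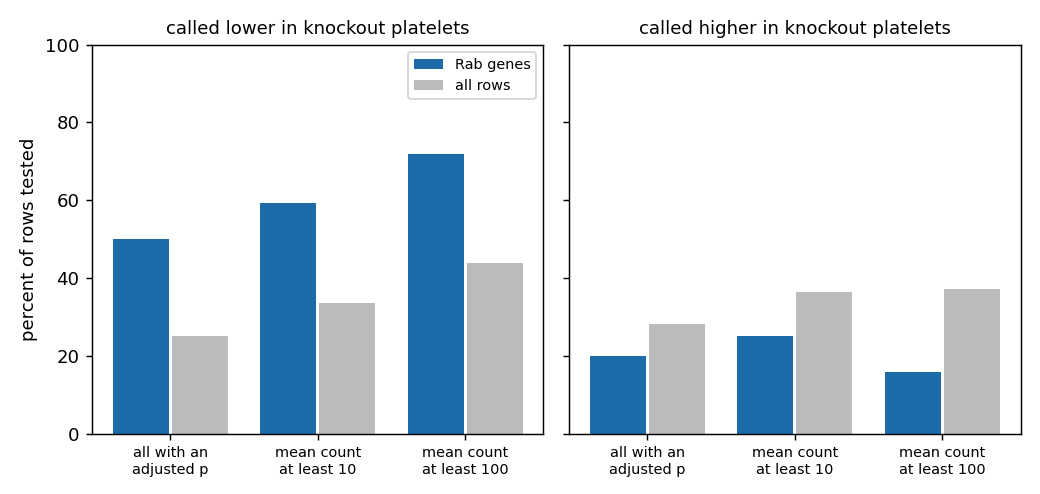
Percent of rows tested that were called lower (left) and higher (right) in knockout platelets on the y axis, for the Rab genes in blue and all rows in grey, at 3 minimum levels on the x axis. The Rab share called lower was 50%, 59.4% and 72%, each above the grey bar beside it.

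Secretory route genes made up 13 of the 40, of which 8 were called lower and 2 higher. Rab6b (ENSMUSG00000032549, chromosome 9, 103111787 to 103185276 on the plus strand, GRCm38), a Golgi Rab best known from neurons, had the lowest value of any Rab gene, -4.70 (SE 0.24) at a mean count of 589 in the authors' deposited table, with a DESeq2 adjusted p of 9.18e-82. Its relative Rab6a was at -2.03 (SE 0.19) and a mean count of 1613 in the authors' deposited table. Rab10, the most abundant Rab amplicon at a mean count of 5222, was at -2.11 (SE 0.29) per the authors' deposited table. The levels of different amplicons do not rank the transcripts. Rab8b was at -2.31 (SE 0.26) and Rab1a at -2.29 (SE 0.22) per the authors' deposited table, with DESeq2 adjusted p-values of 1.13e-18 and 2.65e-25.

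The 2 secretory genes that were higher are relatives of genes that were lower. Rab8a was at 2.04 (SE 0.17) and Rab1b at 1.56 (SE 0.15) per the authors' deposited table, with DESeq2 adjusted p-values of 1.77e-32 and 4.72e-25. Rab13, which acts at cell junctions, was at -1.35, and Rab2a and Rab2b, which tether vesicles at the Golgi, were at -1.34 and -0.62 in the authors' deposited table, all called. Rab18, a lipid droplet Rab, was at -0.22 with an interval from -0.84 to 0.41 in the authors' deposited table, and was not called. Rab19 and Rab30, the other secretory genes without a call, had mean counts under 10.

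Among 10 early and recycling endosome genes, 6 were called lower and 1 higher. Rab11a was at -2.23 (SE 0.29) at a mean count of 3874, and Rab22a, which acts on early endosomes, was at -2.04 (SE 0.19) at a mean count of 3147 in the authors' deposited table. Their DESeq2 adjusted p-values in the authors' deposited table were 3.96e-14 and 4.96e-25. Rab5a, which drives early endosome fusion, was at -1.40, Rab31 at -1.04, Rab14, which acts between Golgi and endosomes, at -0.75 and Rab21, which moves integrins, at -0.72 in the authors' deposited table. Rab5c was the gene called higher, at 0.98 (SE 0.17) per the authors' deposited table. Rab5b was at 0.10 (interval -0.30 to 0.49) and Rab35, a fast recycling Rab, at -0.20 (interval -0.67 to 0.26) in the authors' deposited table, so changes of the size seen for Rab5a lie outside both intervals.

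The late endosome and lysosome genes held the widest range. Rab34 (ENSMUSG00000002059, chromosome 11, 78188430 to 78192193 on the plus strand, GRCm38), a Golgi Rab that positions lysosomes and acts in cilium formation, had the highest value, 7.12 (SE 0.79), at a mean count of 40.7 in the authors' deposited table, with a DESeq2 adjusted p of 2.23e-18. Rab12 (ENSMUSG00000023460, chromosome 17, 66494512 to 66519729 on the minus strand, GRCm38) was at -3.90 (SE 0.36) and a mean count of 233 in the authors' deposited table, with a DESeq2 adjusted p of 4.73e-26. Rab24, linked to autophagy, was at 1.45, Rab36 at -1.27 and Rab9, which returns cargo from late endosomes to the Golgi, at -0.79 in the authors' deposited table, all called. Rab7 was listed at 0 in the platelet table and at a mean log2 CPM of 7.45 in the megakaryocyte tables, per the authors' deposited tables. No fold change is listed for Rab7 in platelets.

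Of 7 granule and regulated secretion genes, 2 were called lower and 2 higher. Rab32 was at 1.09 (SE 0.25) and Rab38 at 1.03 (SE 0.43) per the authors' deposited table, with DESeq2 adjusted p-values of 3.42e-05 and 0.0345. Rab3d, which acts in regulated exocytosis, was at -1.75 (SE 0.28), and Rab26, a vesicle Rab, at -2.35 (SE 0.90) with a mean count of only 4.77 in the authors' deposited table. Rab29, Rab37 and Rab3b were not called, each with a mean count under 10. Outside these classes, Rab23, a regulator of ciliary signalling, was at -3.03 (SE 0.44), Rab28 at 0.85 (SE 0.17) and Rab40c, which works with ubiquitin ligases, at 0.16 (SE 0.41) per the authors' deposited table. Rab40c was the one of these that was not called.

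For 12 Rab rows the authors' deposited table gives no adjusted p in platelets. Rab3c, Rab42 and Rab7 were listed at 0, and the other 9 had a mean count of at most 0.522, the value of Rab33a. A value listed at 0, as for Rab7, does not show that the transcript is absent or low.

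Relatives were then compared within each table, as the difference of their log2 fold changes with an interval that takes the estimates as independent. In platelets 7 of 8 pairs had an interval that excluded 0, and in 3 of 8 the relatives were called in opposite directions. The Rab5 genes enter 3 of the 8 pairs. Of all platelet rows at a mean count of at least 100, 37.3% were called higher and 44% lower, so opposite calls are common. Platelet values also spread widely, with quartiles of -1.12 and 1.36 over all rows tested, beside a median SE of 0.27 for the Rab genes. The share of other gene pairs with an interval excluding 0 was not computed, and the intervals are not adjusted over the 8 pairs. Nothing particular to relatives is read from either count. An interval that excluded 0 was found for 1 of 8 pairs in each of 4 megakaryocyte tables, and for 0 of 8 between genotypes in 8N cells. Rab8a minus Rab8b was 4.35 (3.75 to 4.95) in platelets and 1.59 (0.86 to 2.32) between genotypes in 16N-plus cells. In 8N cells it was 0.10 (-0.45 to 0.65), and the interaction of this difference with ploidy was 1.49 (0.58 to 2.40). Both of these intervals use 8N SEs from values near 0, which are unstable. In the control ploidy step the difference was -1.52 (-2.22 to -0.81), and in the knockout step -0.03 (-0.63 to 0.58). These megakaryocyte contrasts share libraries, so they are not separate evidence of a difference.

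Rab1a minus Rab1b was -3.85 (-4.36 to -3.34) in platelets and -0.09 (-0.75 to 0.57) in 16N-plus cells. Rab5a minus Rab5c was -2.38 (-2.91 to -1.86) in platelets, with Rab5b between them, and 0.09 (-0.61 to 0.80) in 16N-plus cells. Rab6a minus Rab6b was 2.67 (2.07 to 3.28), with both genes lower. Rab11a minus Rab11b was 0.87 (0.26 to 1.49) in the knockout ploidy step and 0.11 (-0.63 to 0.85) in the control step. Pseudogenes are annotated for Rab11b and Rab5a, so their reads may be split.

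**Figure D4:**
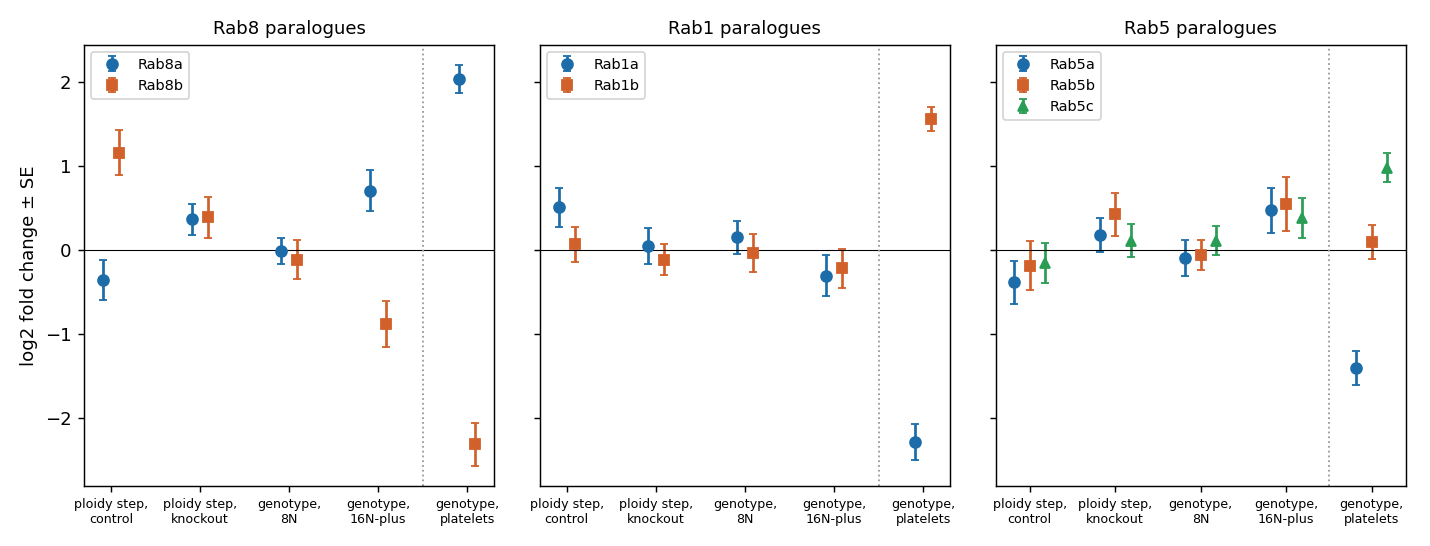
Log2 fold change ± SE on the y axis for the Rab8, Rab1 and Rab5 relatives in 4 megakaryocyte comparisons and in platelets, with a dotted line between the data types. Rab8a and Rab8b lie on opposite sides of 0 in the control ploidy step, between genotypes in 16N-plus cells and in platelets, while the Rab1 and Rab5 relatives separate in platelets.

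The promoters of the Rab8 and Rab1 pairs are shown, whose genes were called in opposite directions in knockout platelets. So were Rab5a and Rab5c, whose windows are not shown. Each window runs from 250 bases before to 50 after the start in RefSeq's GRCm38.p6 and is read 5′ to 3′ on the gene's strand. Capitals mark matches on either strand to GGGCGG (a GC box) or CCGGAAG (an ETS motif), while the GATA factor motif AGATAA, the E-box CACGTG and the NF-E2/AP-1 motif TGAGTCA were searched on both strands with 0 matches in these windows. The windows are chr8:72160950-72161249 on the plus strand for Rab8a, chr9:66919656-66919955 on the minus strand for Rab8b, chr11:20201162-20201461 on the plus strand for Rab1a and chr19:5106947-5107246 on the minus strand for Rab1b.
Rab8a: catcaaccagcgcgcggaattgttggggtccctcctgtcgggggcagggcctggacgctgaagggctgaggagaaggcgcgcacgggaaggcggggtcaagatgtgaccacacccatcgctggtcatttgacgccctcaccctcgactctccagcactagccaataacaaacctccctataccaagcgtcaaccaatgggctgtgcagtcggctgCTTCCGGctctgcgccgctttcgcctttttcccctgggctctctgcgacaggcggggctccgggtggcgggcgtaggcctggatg
Rab8b: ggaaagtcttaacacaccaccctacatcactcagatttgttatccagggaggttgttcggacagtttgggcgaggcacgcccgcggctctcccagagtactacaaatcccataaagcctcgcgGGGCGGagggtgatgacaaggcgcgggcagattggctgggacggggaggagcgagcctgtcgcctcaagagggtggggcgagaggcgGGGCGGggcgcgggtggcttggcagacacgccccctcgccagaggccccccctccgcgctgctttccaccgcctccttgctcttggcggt
Rab1a: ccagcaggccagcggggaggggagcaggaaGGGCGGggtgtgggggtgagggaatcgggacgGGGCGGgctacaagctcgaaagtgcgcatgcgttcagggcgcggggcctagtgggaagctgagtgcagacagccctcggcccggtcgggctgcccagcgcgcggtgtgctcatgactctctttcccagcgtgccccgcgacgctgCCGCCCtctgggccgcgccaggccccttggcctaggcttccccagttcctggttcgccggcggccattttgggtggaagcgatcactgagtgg
Rab1b: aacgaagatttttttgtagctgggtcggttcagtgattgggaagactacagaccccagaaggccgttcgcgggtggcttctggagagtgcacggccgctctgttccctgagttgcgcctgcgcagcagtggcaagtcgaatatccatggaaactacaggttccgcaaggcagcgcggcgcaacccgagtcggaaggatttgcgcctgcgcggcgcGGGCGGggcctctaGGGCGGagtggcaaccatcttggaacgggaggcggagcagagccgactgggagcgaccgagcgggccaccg
Rab8a holds 1 ETS match and 0 GC boxes, and Rab8b holds 2 GC boxes. Rab1a holds 3 GC boxes and Rab1b 2, so the Rab1 relatives share this motif.
A GC box was found in 39 of 56 windows of 45 Rab genes with a window (69.6%), and in 35.7% of 32851 windows of all genes. It was found in 16 of 19 windows of 17 genes lower in knockout platelets (84.2%). Among genes higher there it was in 4 of 8 windows of 7 genes (50%). Some genes have more than 1 window, and a difference between these groups was not tested. The ETS letters were in 5 of 56 Rab windows (8.93%) and in 8.86% of all, and the GATA letters in 2 of 56 (3.57%) and in 11.2%. E-box letters were in 5 of 56, with 7.15% over all windows, and NF-E2/AP-1 letters in 2 of 56, with 5.20% over all. A match describes letters in a window and is no site of binding by itself.

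The platelet values were set beside those of megakaryocytes for the 29 Rab genes tested in both. Of the 24 that were called in platelets, 17 were lower and 7 higher there. In 8N cells 18 of the 24 had the same sign as in platelets, where 60% of 5077 genes called in platelets did. Of the 17 lower, 15 were below 0, beside 60.9% of all genes lower in platelets. Of the 7 higher, 3 were above 0, beside 59.2%. In 8N cells 27 of all 35 Rab genes were below 0, whatever their platelet value. In 16N-plus cells 13 of the 24 had the platelet sign, where 65.5% of genes did. There 8 of the 17 were below 0, beside 57.5%, and 5 of the 7 above 0, beside 71.9%. The sign of the platelet table was itself chosen from its relation to the megakaryocyte tables. With the platelet sign turned, 6 of the 24 would have the same sign in 8N cells, beside 40% of genes, and 11 of the 24 in 16N-plus cells, beside 34.5%. Rab8b was called lower in both data types. Rab12 and Rab11a were at 0.52 and 0.37 in 16N-plus cells, neither called, while both were called lower in platelets, per the authors' deposited tables.

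**Figure D5:**
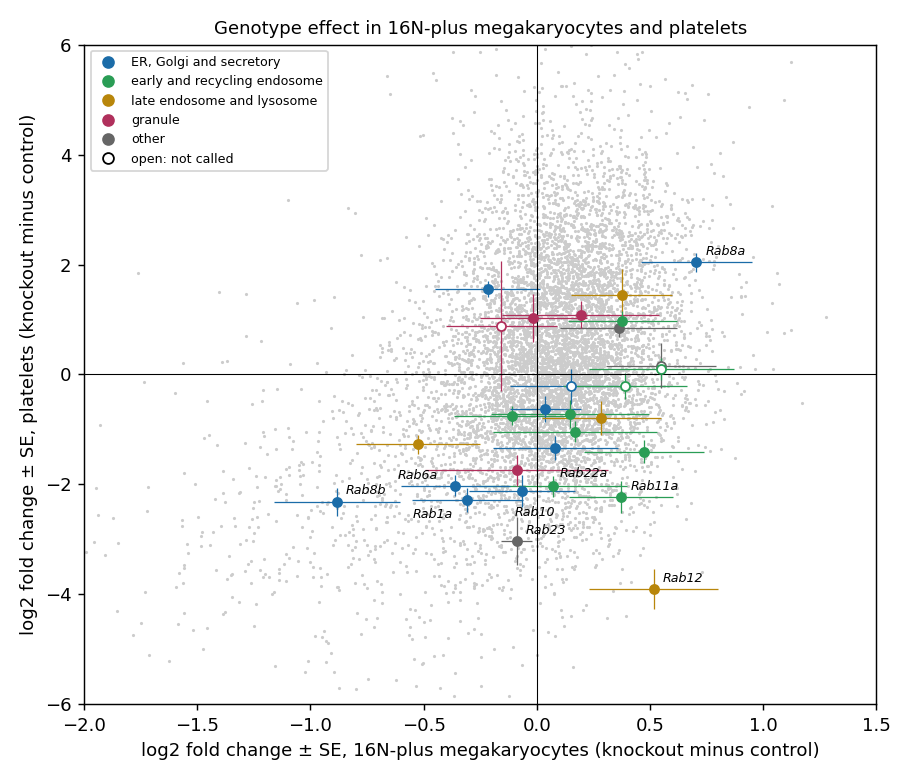
Log2 fold change ± SE (knockout minus control) in 16N-plus megakaryocytes on the x axis and in platelets on the y axis for the 29 Rab genes tested in both, with other genes as grey dots and those beyond the axes not drawn. Rab8b lies at -0.88 and -2.31 and Rab8a at 0.71 and 2.04, and filled points were called in platelets.

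The genes that load, switch and read Rab proteins were examined next. In the control ploidy step, 3 of 30 GEFs and 5 of 34 effectors tested in megakaryocytes were called higher. There 1 of 29 GAPs was called lower, and 0 of 8 lipid and escort genes were called. In 16N-plus cells 3 of 30 GEFs and 4 of 34 effectors were lower in knockouts, and 1 effector was higher. A difference between these classes was not tested. In the same comparisons megakaryocyte markers were called higher (10 of 12) and lower (6 of 12), and their part was not tested. Lists of 8 lipid and escort genes, 36 GEF genes, 39 GAP genes and 45 effector genes were used, of which 101 genes were tested in megakaryocytes and 120 in platelets. In the control ploidy step 8 of 101 were higher, where 4.74% of all rows were, and 1 was lower, the GAP gene Tbc1d9 at -0.76 in the authors' deposited table, where 2.51% were. The Tbc1d9 call was lost at a threshold of 0.01, with Holm adjustment, after centring on the median gene and with a minimum change of 1 on the log2 scale. Those that rose were the GEFs Dennd4a (1.37, SE 0.28), Dennd2c and Rin3, and the effectors Sytl4, Unc13d, Exoc6, Bicd2 and Optn, per the authors' deposited table. Sytl4 (granuphilin) and Unc13d (Munc13-4) act in granule docking and priming, and Exoc6 is an exocyst subunit.

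Between genotypes in 16N-plus cells, 7 of 101 were lower, where 3.12% of all rows were, and 1 was higher, where 0.386% were. Sytl4 was at -1.56, Dennd2c at -1.48, Optn at -1.28, Dennd4a at -1.21, Rin3 at -1.09, Bicd2 at -0.81 and Exoc6 at -0.80 in the authors' deposited table. The control ploidy step shares the control 16N-plus libraries with this comparison, and there Sytl4 was at 1.11, Dennd2c at 1.17, Optn at 0.94, Rin3 at 1.03, Bicd2 at 0.96 and Exoc6 at 0.97 in the authors' deposited table. Acap2, a GAP for Arf proteins that binds Rab35, was the gene that rose, at 0.88 in the authors' deposited table. Its genotype effect differed between ploidies, with an interaction of 1.26 and a Benjamini-Hochberg adjusted p of 0.00577 over all genes, by the normal approximation used for the interaction. In 8N cells it was at -0.38 in the authors' deposited table, and was not called. Acap2 was also the 1 of 101 called in the ploidy step of knockout cells, higher at 0.82 in the authors' deposited table, where 2.1% of all rows were. In 8N cells 1 of 101 was lower, Sytl4 at -0.91 in the authors' deposited table, where 1.14% of all rows were. In the comparison that pools both ploidies 6 were lower, where 3.57% of all rows were, and 1 was higher, the GAP gene Rabgap1 at 0.52, where 0.622% were, per the authors' deposited table. The Rabgap1 call was lost under the same 4 alternatives, and after centring 7 regulators were lower and 0 higher. The 8 lipid and escort genes were called by edgeR in 0 of the 5 megakaryocyte tables, with at most 1 at an unadjusted p under 0.05 in each.

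In platelets 34 of 120 regulators were called higher and 42 lower, beside 28.2% and 25% of all rows. The GEFs split 10 and 12, the GAPs 8 and 15, the effectors 14 and 13, and the lipid and escort genes 2 and 2. Of the 7 that were lower in 16N-plus knockout cells, Sytl4 (-4.33), Bicd2 (-2.92), Dennd2c (-2.86), Exoc6 (-2.67) and Rin3 (-1.84) were also called lower in platelets in the authors' deposited table. Dennd4a at -0.29 and Optn at 0.70 were not called there. Acap2 was at -1.51 in the authors' deposited table, below 0 where its 16N-plus value was above. The highest GEF value was that of Dennd6b (4.92, SE 0.78), and the highest effector value that of Micall2 (5.11, SE 0.53). Tbc1d4, a GAP for Rab10, had the lowest GAP value (-3.55, SE 0.59) in the authors' deposited table. All 3 had low mean counts there, of 11.3, 33.8 and 28.6. Erythroid markers had a median of 5.57 in the same comparison, and their part in the regulator values was not tested.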

How the data were processed

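The 6 deposited tables hold the authors' comparisons of 12 megakaryocyte and 10 platelet samples. Per the file headers, the 5 megakaryocyte tables are edgeR quasi-likelihood output for 9326 genes: log2 fold change, log2 of mean CPM, F score, p-value and its adjusted form. The lowest mean log2 CPM was 4.23. Per the file headers, the deposited platelet table is DESeq2 output holding a signal (mean count scaled by size factors), log2 fold change and SE, test score, p-value and its adjusted form. Per the submitters' processing notes, Trimmomatic, STAR, Picard, Subread, featureCounts, edgeR, DESeq2 and the build mm10 were used, with versions not given in the sources used here. Per the labels' protocols, pooled sorted megakaryocytes gave stranded total RNA libraries (Illumina), and 10 ng of platelet RNA gave an Ion AmpliSeq panel (Ion Proton). Depth per library is unknown, and levels of the data types were not compared. Which platelet control samples entered the deposited table is not stated in the sources used here. The labels do not tie samples to animals, so p-values refer to samples, which need not be separate animals.

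Symbols were matched to 9300 of 9326 Ensembl IDs. Calls use the authors' adjusted p, over all rows of a table, under 0.05. The megakaryocyte SE was the size of the log2 fold change over the root of F, which is unstable near F = 0. In megakaryocytes 95% intervals use the 339 denominator degrees of freedom implied by F and p. That number is far above what 12 libraries give for a single gene, so the spread used was mostly shared over genes. Megakaryocyte p-values and intervals therefore do not measure a gene's own spread between samples alone. The interaction was the difference of both genotype values divided by the SE that results when both SEs are taken as independent, by a normal approximation with Benjamini-Hochberg adjustment over 9305 genes. Scripts were tested on simulated data, in Python 3.11.15 with pandas 2.3.3 and SciPy 1.17.1. Gene positions are from GENCODE on GRCm38. The Rab genes, classes, relatives and regulator lists were chosen with earlier results of these data known. Named in full were Rab genes called in megakaryocytes and the 12 called ones with the largest platelet change, and at most 4 called genes of each regulator list and comparison. Other thresholds, adjustments, centring and level minimums were tried as alternatives.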

Additional observations from a re-analysis of the deposited data

How the results depend on the processing

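No paired analysis was possible because the deposited tables hold no values per library, and for the same reason no replicate could be left out. Rab genes called in the control ploidy step (2) became 0 with Holm adjustment, 1 with an absolute log2 fold change of at least 1 and 1 without Rab43, the last chosen after seeing the data. Those in the knockout ploidy step (1) became 0 with Holm and 0 with that minimum. Those between genotypes in 16N-plus cells (1) became 0 at a threshold of 0.01, 0 with Holm and 0 with the minimum. The interaction (0) gave 1, Rab43, with an SE taken from the pooled table, a setting added later that is unstable near F = 0 and called 428 of 9294 genes where 68 were called otherwise. In platelets 20 to 28 Rab genes were called under every alternative run. Regulator calls in the control step (9) became 2 with Holm and 5 with the fold minimum, and after centring the split of 8 higher and 1 lower became 9 and 0. In the knockout step (1) they became 0 with Holm, 3 after centring, 2 at a mean log2 CPM of at least 6 and 0 with the minimum. In 8N cells (1) they became 0 with the minimum. In 16N-plus cells (8) they became 5 at 0.01, 1 with Holm and 5 with the minimum, and in the pooled table (7) 3 with Holm and 2 with the minimum. In platelets (76) they became 48 with Holm and 48 at a mean count of at least 100. Centring on the median gene moved all calls in the control step from 442 higher and 234 lower to 627 and 131, and in the knockout step from 196 and 113 to 279 and 93. It turned the 16N-plus value of Rab22a to -0.0028 and the interaction of Rab23 to -0.027, neither called. Of 358 values for single genes under alternatives, 345 kept their direction and side of the threshold, 10 lost and 1 gained a call. Only centring can change a direction, and an uncalled gene cannot gain a call under a stricter rule. Many of these outcomes were therefore fixed in advance. Holm, a higher fold minimum and fewer rows tested are stricter or narrower by construction; the cause of the other changes was not tested. Depth per library, spread between replicates and splicing cannot be read from these tables.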

Other observations

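Transcript length was set beside the platelet values, with annotated transcripts from GENCODE. The 8 Rab genes higher in knockout platelets had a median transcript length of 1799 nt and a median 3′ UTR of 928 nt. The 20 that were lower had medians of 3148 nt and 2041 nt. The ranges overlapped widely, from 1168 to 4550 nt in the higher genes and from 1107 to 7155 nt in the lower ones. Over the 40 Rab genes tested, Spearman's rho of the platelet log2 fold change was -0.26 with transcript length and -0.33 with the mean count. These values are across genes, which are not independent replicates, and they share the libraries of a single table.

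Other Rab genes overlap exons of a protein-coding neighbour. Rab26 does so with Traf7 on the same strand. On the opposite strand Rab6a overlaps Mrpl48, Rab5a Pp2d1, Rab2b Tox4, Rab24 Prelid1 and Rab3a Mpv17l2. Further Rab genes overlap neighbours not annotated as protein-coding. Among them are Rab11a with Gm47308 and Rab18 with AC131796.2 on the same strand, and Rab10 with Rab10os on the opposite strand. Rab43 and Rab7 lie on chromosome 6 within the same region, 87788853 to 87812164 and 87999106 to 88045270, and in the control ploidy step the authors' deposited table gave them -0.96 and -0.42, the second with an interval from -0.88 to 0.04.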
